A study of Saccharomyces cerevisiae with 2 samples.

Results

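The ADE genes of budding yeast encode the enzymes that build purines from small precursors. In this pathway the ribose phosphate PRPP is converted step by step to inosine monophosphate (IMP), the common precursor of AMP and GMP. Most of its genes are switched on together by the transcription factors Bas1 and Pho2 when purines are scarce, and the pathway draws on glycine, aspartate, glutamine and one-carbon units carried by tetrahydrofolate. The 10 genes ADE1, ADE2, ADE4, ADE5,7, ADE6, ADE8, ADE12, ADE13, ADE16 and ADE17 were followed here by picking the probe sets whose platform annotation names them. A probe set was found for 9 of the 10, each with 1 probe set, among 5449 S. cerevisiae genes measured. ADE5,7, a single gene for a bifunctional enzyme of the pathway, had no probe set annotated to it and was not analysed here.

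Transcripts were measured on 2 Affymetrix arrays, 1 for a culture in DR medium (0.5% glucose) and 1 for a culture in AL medium (2.0% glucose). Both cultures were of the haploid strain BY4742, mating type alpha, which carries his3Δ1, leu2Δ0, lys2Δ0 and ura3Δ0. Both media held yeast extract and peptone, and growth lasted 12 hours at 30°C. The values are linear signal intensities per probe set, relative to the RNA hybridized, so that the amount of RNA per cell was not measured.

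Because each condition has 1 array, error could not be estimated and no difference was tested, and precision is limited by that number. Differences are given as the ratio of the DR-labelled array over the AL-labelled array, or its log2, and genes were counted past 2-fold. The direction below opposes that of the ratios tabulated in the study for these arrays. The arrays are therefore named by their labels, and all signs below would turn if the labels were exchanged. Genes that the strain lacks or that alpha cells keep silent set a background of 129.4 on the DR-labelled array and 281.6 on the AL-labelled array, both from STE6, the exporter of the a-factor pheromone. These are the highest signals of 9 such genes, whose medians were 24.6 and 57.6 on these arrays. Over all genes the median log2 ratio was −0.12.

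Most of the ADE genes were far higher on the DR-labelled array. Of the 9 measured, 7 were more than 2-fold higher there and 0 on the AL-labelled array, beside 20.5% and 24.3% of all genes in these directions. The same 7 were also those past 1.5-fold and past 3-fold on the DR-labelled array, thresholds that 29.3% and 11.5% of all genes passed there, and 0 passed either on the AL-labelled array, where 35.7% and 12.7% of all genes did. The other 2, ADE8 and ADE16, lay within 2-fold. The median log2 ratio of the 9 genes was 2.73, a 6.65-fold difference, and single genes ran from 0.01 to 4.26.

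**Figure D1:**
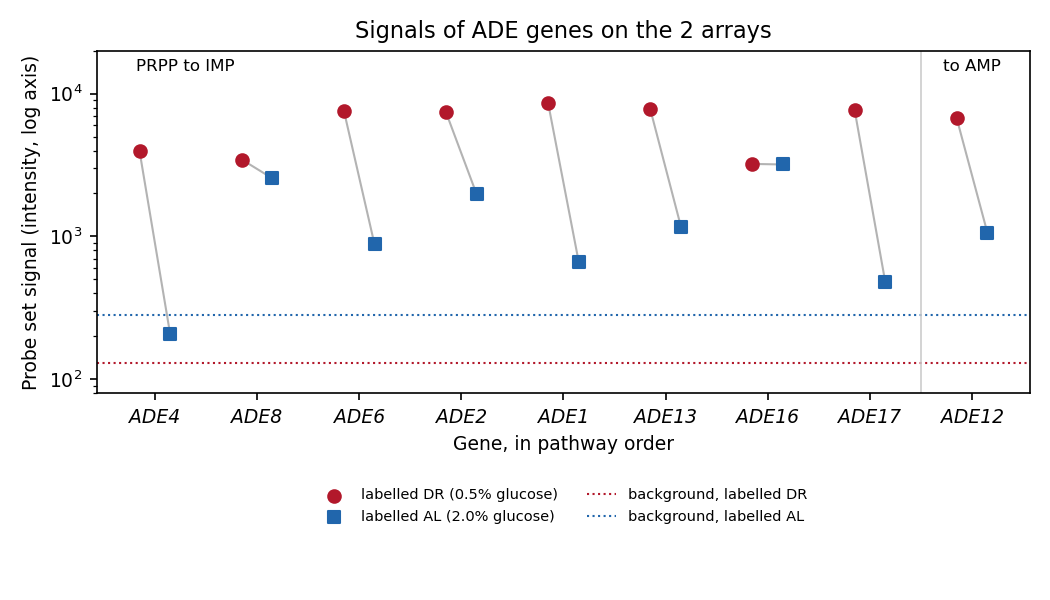
Probe set signal (intensity, log axis) of the 9 measured ADE genes in pathway order, with a red point for the array labelled DR, a blue square for the array labelled AL and dotted lines for the background of each array. The points are far apart for 7 genes and close together for ADE8 and ADE16, and the AL-labelled signal of ADE4 lies under that array's background of 281.6.

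ADE4 encodes the amidotransferase that commits PRPP to purine synthesis. Its signal was 3948 on the DR-labelled array and 205.7 on the AL-labelled array, a ratio of 19.2. This was the highest ratio among the ADE genes as deposited. The AL-labelled signal lay under background, so the size of this ratio is uncertain. With that signal raised to background the ratio was 14.0, below the 16.0 of ADE17, which was then the highest.

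The enzyme of ADE5,7, whose gene was not measured, then adds glycine. ADE8 encodes the transformylase that follows and adds a one-carbon unit to the glycine-derived intermediate. It had 3459 on the DR-labelled array and 2552 on the AL-labelled array, a ratio of 1.36. ADE6, for the synthetase that follows and uses glutamine, had 7611 on the DR-labelled array and 881.5 on the AL-labelled array, a ratio of 8.63.

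The genes for the carboxylase and for the ligase that brings in aspartate were also higher on the DR-labelled array, to unequal extents. ADE2, the carboxylase gene whose loss gives red colonies, had 7410 on the DR-labelled array and 1975 on the AL-labelled array, a ratio of 3.75. This was the lowest among the 7 genes past 2-fold. ADE1, the gene for the ligase and likewise a red-colony gene when lost, had 8570 and 660.3 on the DR- and AL-labelled arrays, a ratio of 13.0.

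ADE13 encodes adenylosuccinate lyase, which acts both on the way to IMP and in the last step to AMP. It had 7785 on the DR-labelled array and 1171 on the AL-labelled array, a ratio of 6.65. ADE12, for the adenylosuccinate synthase that works just before it in the AMP branch, had 6723 on the DR-labelled array and 1064 on the AL-labelled array, a ratio of 6.32. The ratios of the 2 genes of the AMP branch were thus close to each other.

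The last steps to IMP are carried out by either of 2 paralogous bifunctional enzymes, Ade16 and Ade17, and the ratios of their genes stood far apart. ADE17 had 7723 on the DR-labelled array and 481.5 on the AL-labelled array, a ratio of 16.0. ADE16 had 3222 on the DR-labelled array and 3193 on the AL-labelled array, a ratio of 1.01. The ratio of ADE17 was therefore 15.9 times that of ADE16, a gap of 3.99 on the log2 scale. Each gene had a probe set of its own, and whether RNA of a paralog contributes to the signal of the other was not tested.

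**Figure D2:**
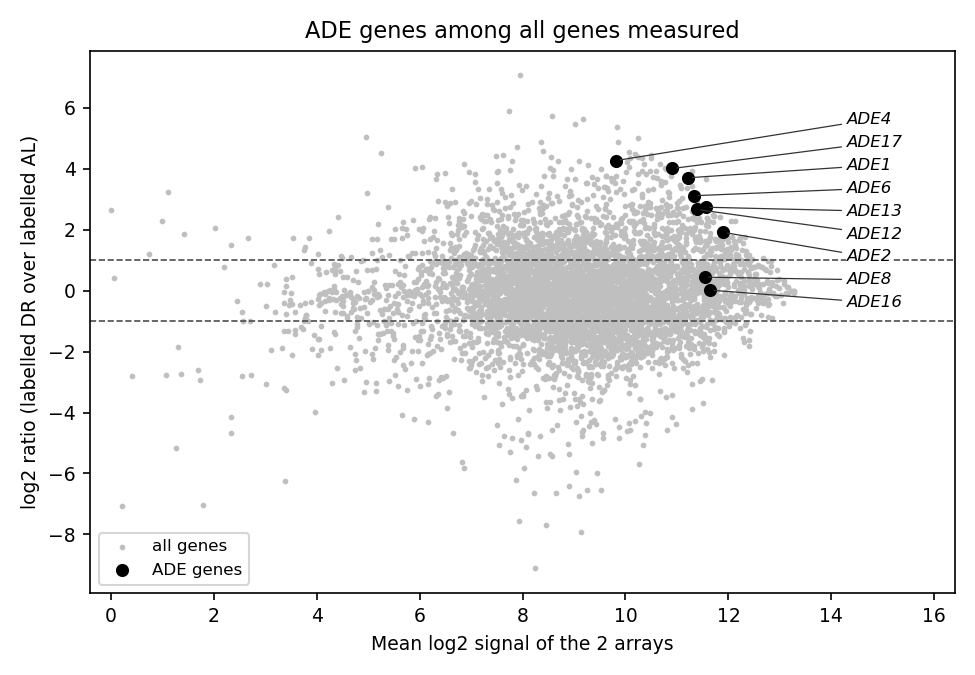
The log2 ratio of DR-labelled over AL-labelled signal against the mean log2 signal of both arrays, for all 5449 genes (grey) and the 9 measured ADE genes (black), with dashed lines at 2-fold. ADE4, at 4.26, and ADE17, with a ratio of 16.0, lie near the upper edge of all genes, whereas ADE8, at 0.44, and ADE16, at 0.01, lie among the bulk.

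Ordered by ratio as deposited, ADE4 was followed by ADE17, ADE1, ADE6, ADE13, ADE12, ADE2, ADE8 and ADE16. With signals raised to background, ADE17 came before ADE4 and the others kept their order. Since no gene has a replicate, no neighbours in this order can be said to differ. The order does not follow the pathway: the genes with the smallest ratios stand at an early step (ADE8) and at the last steps to IMP (ADE16). The direction of the 7 genes and their place past 2-fold held under median centring, quantile normalization, removal of the trend on signal and both treatments of background. Among the ADE genes only ADE4 had a signal under background, so raising signals to background could change no other ratio. For ADE16 the log2 ratio became −0.17 after quantile normalization and −0.16 after removal of the trend on signal.

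**Figure D3:**
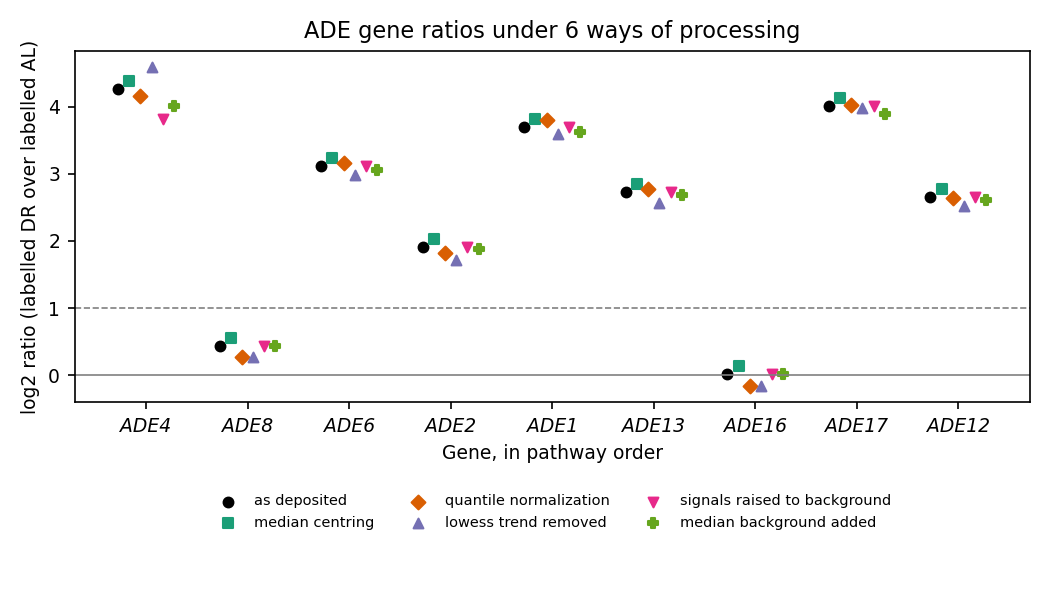
The log2 ratio of DR-labelled over AL-labelled signal for each measured ADE gene under 6 ways of processing, each with its own symbol and colour, with a dashed line at 2-fold and a solid line at 0. ADE2 is the lowest of the 7 genes above the dashed line in each, ADE4 moves most, between 3.81 and 4.59, and ADE16 stays near the solid line.

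The genes that lead from IMP to GMP stood the same way as those that lead to AMP, with larger ratios. All 4 measured genes of the GTP branch passed 2-fold toward the DR-labelled array, beside 20.5% of all genes, with a median log2 ratio of 4.12. IMD2, IMD3 and IMD4 encode IMP dehydrogenase, which turns IMP toward GMP, and GUA1 encodes GMP synthase. IMD2 had 2848 on the DR-labelled array and 21.4 on the AL-labelled array, and its ratio was 10.1 with the AL-labelled signal raised to background. IMD3 had 5513 and 244.6 on the DR- and AL-labelled arrays, and IMD4 had 2886 and 215.7. GUA1 had 3304 on the DR-labelled array and 247.0 on the AL-labelled array. All 4 AL-labelled signals lay under background, so these ratios are uncertain in size, and with such signals raised to background the median was 3.45. IMD1 had no probe set annotated to it, and whether its RNA contributes to the signal of IMD2 was not tested.

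PRPP, the substrate of Ade4, is made by synthetases whose subunits are encoded by PRS1 to PRS5. Of these 5, 4 were more than 2-fold higher on the DR-labelled array (median log2 ratio 1.76), beside 20.5% of all genes. PRS3 had 1809 on the DR-labelled array and 425.7 on the AL-labelled array, and PRS1 had 1884 and 516.4 on the same arrays. The lowest ratios were those of PRS4, with 852.0 on the DR-labelled array and 368.5 on the AL-labelled array, and PRS2, with 671.9 and 831.4, which lay within 2-fold.

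For one-carbon and glycine supply, 6 of the 10 genes passed 2-fold toward the DR-labelled array and 1 toward the AL-labelled array (median log2 ratio 1.28), beside 20.5% and 24.3% of all genes. After quantile normalization or removal of the trend on signal, 5 passed toward the DR-labelled array and 0 toward the AL-labelled array. After median centring these counts were 8 and 1. In the cytosol, SHM2, a serine hydroxymethyltransferase that releases one-carbon units from serine, had 10739 on the DR-labelled array, the top of that array's range, and 858.4 on the AL-labelled array. MTD1, a dehydrogenase of folate-bound one-carbon units, had 6399 and 1451 on the DR- and AL-labelled arrays. ADE3, the C1-tetrahydrofolate synthase that makes the formyl donor for purines, had 6918 on the DR-labelled array and 3143 on the AL-labelled array. ADE3 thus had a smaller ratio (2.20) than any of the 7 ADE genes past 2-fold.

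In mitochondria, MIS1, the counterpart of ADE3, had 1805 on the DR-labelled array and 95.2, under background, on the AL-labelled array. SHM1, the mitochondrial counterpart of SHM2, had 4067 and 2164 on the DR- and AL-labelled arrays, within 2-fold. Of the genes for the glycine cleavage enzymes, GCV1 had 7282 on the DR-labelled array and 1915 on the AL-labelled array. GCV3 had 5921 and 2223 on these arrays and GCV2 had 6827 and 3443, the last just within 2-fold. LPD1, whose product also serves pyruvate dehydrogenase, had 6381 on the DR-labelled array and 6071 on the AL-labelled array. FAU1, which recycles a storage form of folate, stood the other way, with 615.6 on the DR-labelled array and 1381 on the AL-labelled array.

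Histidine synthesis starts from PRPP and ATP and gives back an intermediate of purine synthesis. Of the 6 genes counted, HIS1, HIS4 and HIS7 were more than 2-fold higher on the DR-labelled array, beside 20.5% of all genes. The others lay within 2-fold, and the median log2 ratio was 2.09. HIS1 had 4482 on the DR-labelled array and 243.9 on the AL-labelled array, and HIS7 had 1434 and 105.1, both AL-labelled signals lying under background. HIS4, named after its values were seen, had 7589 on the DR-labelled array and 730.2 on the AL-labelled array. The lowest ratios were those of HIS2, with 791.2 and 582.5 on the DR- and AL-labelled arrays, and HIS6, with 269.5 and 161.8. HIS3, altered in the strain, was left out.

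Genes for the uptake, salvage and interconversion of purines were divided (median log2 ratio 0.81). Among the 15, 7 passed 2-fold toward the DR-labelled array and 0 toward the AL-labelled array, beside 20.5% and 24.3% of all genes. HPT1, the phosphoribosyltransferase that recovers hypoxanthine and guanine, had 1855 on the DR-labelled array and 145.4 on the AL-labelled array. AAH1, adenine deaminase, had 311.9 and 31.1 on these arrays. The AL-labelled signals of both lay under background. With signals raised to background, the ratio was 6.59 for HPT1 and only 1.11 for AAH1. Then 5 of the 15 genes passed 2-fold toward the DR-labelled array. Toward the AL-labelled array 2 passed, both under background on both arrays as deposited. FCY2, the purine-cytosine permease gene, was named after its values were seen. It had 3007 on the DR-labelled array and 334.3 on the AL-labelled array, both above background. Its ratio of 8.99 was the highest of the list with signals raised to background. At the low end, AMD1, AMP deaminase, had 1407 on the DR-labelled array and 2389 on the AL-labelled array, and FCY21, a relative of the purine-cytosine permease gene, had 58.2 and 77.5, under background on both.

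The nucleotide kinase and pyrimidine lists both had lower median ratios than the ADE genes, and URA6 was counted in both lists. Of the 5 kinase genes, 2 passed 2-fold toward the DR-labelled array (median log2 ratio 0.92), and 1 did after quantile normalization or removal of the trend on signal, which is near the 20.5% of all genes. ADK1, adenylate kinase, had 6294 on the DR-labelled array and 2786 on the AL-labelled array, and GUK1, guanylate kinase, had 3146 and 1474. The lowest were YNK1, nucleoside diphosphate kinase, with 2933 and 3487 on the DR- and AL-labelled arrays, and URA6, uridylate kinase, with 1881 and 3371.

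Of the 8 pyrimidine genes, 5 passed 2-fold toward the DR-labelled array and 1 toward the AL-labelled array, in a strain without URA3. The shares of all genes were 20.5% and 24.3%. Their median log2 ratio was 1.29, close to the 1.28 of one-carbon supply. URA2, for the enzyme of the first steps, had 5596 on the DR-labelled array and 757.1 on the AL-labelled array. URA5 and URA10 are paralogs for orotate phosphoribosyltransferase, and they stood in opposite directions. URA5 had 4697 on the DR-labelled array and 1222 on the AL-labelled array, whereas URA10 had 313.9 and 1667. Next lowest were URA8, a CTP synthase gene, with 1670 on the DR-labelled array and 3100 on the AL-labelled array, and URA6, given above.

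**Figure D4:**
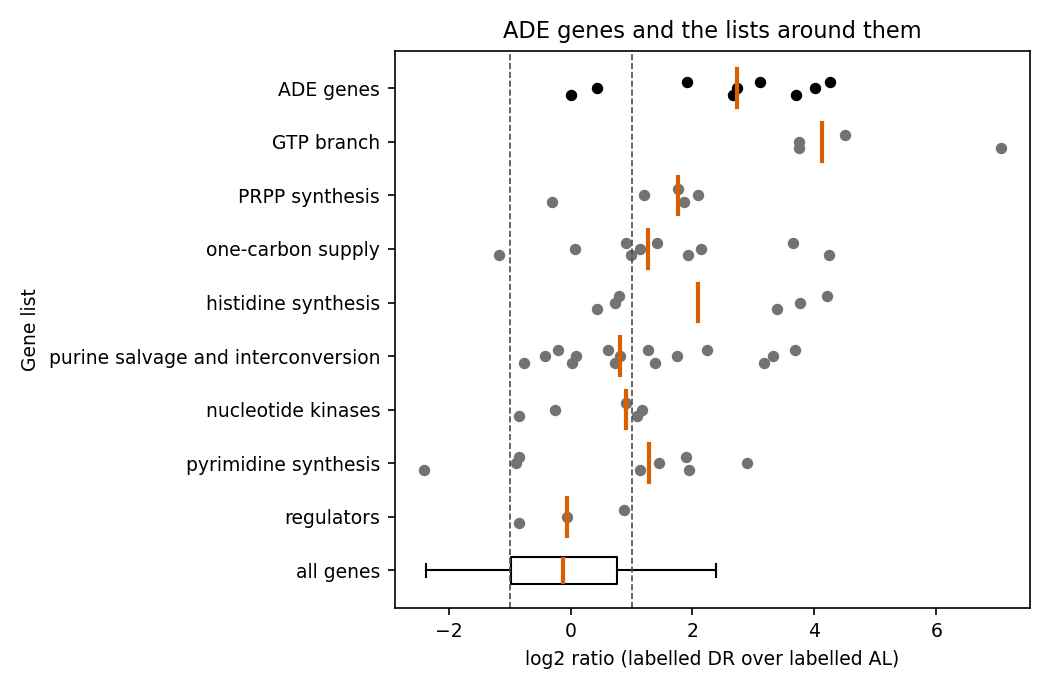
The log2 ratio of DR-labelled over AL-labelled signal for each gene (points) of the ADE genes and 8 lists around them, with orange lines for the medians, and all genes as a box (quartiles) with whiskers (percentiles 5 and 95). The ADE median of 2.73 lies between that of the GTP branch at 4.12 and that of histidine synthesis at 2.09, and the regulators lie within 2-fold as deposited (dashed lines).

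The transcripts of the activators themselves lay within 2-fold as deposited. BAS1 had 137.2 on the DR-labelled array and 143.5 on the AL-labelled array, the first just above and the second under the background of its array. With the AL-labelled signal raised to background, its log2 ratio was −1.04, past 2-fold toward the AL-labelled array. That value is set by the AL-labelled background of 281.6, higher than the 129.4 of the DR-labelled array, so it shows no difference in BAS1. PHO2, which encodes the homeodomain partner of Bas1, had 515.6 and 927.1 on these arrays. GCN4, the activator of amino acid synthesis genes, had 6882 on the DR-labelled array and 3763 on the AL-labelled array. These are transcript levels, and the activity of Bas1, Pho2 and Gcn4 was not measured.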

How the data were processed

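Signals of 2 Affymetrix GeneChip Yeast Genome 2.0 arrays were analysed, 1 per condition. The deposited table holds a linear intensity for each of 10928 probe sets, which the authors had normalized by a service laboratory with the Affymetrix statistical algorithms. Not given in the sources used here were the version, target level and scaling between arrays. Scanner files were not used. Gene names came from GEO's platform annotation, possibly outdated (7244 with 1 gene, 1 with several, 3683 with none), and updated through gene identifiers in the RefSeq table of assembly R64, which held 5498 of them for 5449 genes. Probe sets of a gene were averaged as log2 signals, with signals under 0.1 set to 0.1.

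The call rule was 2-fold, as in the study's methods. With 1 array per condition no test was run. The highest signal of 9 genes that are deleted or silent in the strain was taken as background. Alternatives were median centring, quantile normalization of the probe sets, removal of the lowess trend on signal (span 0.3), signals raised to background, the median background signal (41.1, the mean over both arrays) added, genes under background on both arrays left out, the brightest probe set of a gene, thresholds of 1.5-fold and 3-fold, and the mean for the median. A lower background was chosen after seeing the data, the 95th percentile of signals of probe sets annotated outside the S. cerevisiae table (11.7 and 11.5 on the arrays labelled DR and AL). Both signals of ADE4 lay above it, so raising signals to it could not change the log2 ratio of 4.26. The calculation was tested on simulated data. All ADE genes, all regulators and all genes of the GTP branch and one-carbon lists were named, and of other lists the top 2 and bottom 2 by ratio. FCY2 and HIS4 were also named, after their values were seen. The members and lists were chosen with earlier results of these data known. A planned motif search was not run, since no promoter sequences were used here. The tools were statsmodels 0.14.6, pandas 2.3.3, numpy 2.4.6 and matplotlib 3.10.9 under Python 3.11.15.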

Additional observations from a re-analysis of the deposited data

How the results depend on the processing

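Of 333 values under the alternatives, 313 stayed within 1.5 times the values as deposited, and 0 values past 2-fold changed direction. Many of the 313 could not change, so their number does not measure robustness. Each measured gene of the lists had 1 probe set, so taking the brightest changed nothing. All their signals lay above the lower background, so raising signals to it changed nothing either. All values of the 9 ADE genes, their median (2.57 to 2.85, or as a mean 2.54) and their counts were among the 313, though ADE16, near 0, changed sign after quantile normalization and removal of the trend. The other 20 concerned the lists around them. With signals raised to background, the medians were 3.45 for the GTP branch, 0.25 for nucleotide kinases and −0.85 for regulators. Then 1 regulator and 2 salvage genes were past 2-fold on the AL-labelled array. These calls follow from the higher background of that array, 281.6 beside 129.4, and not from the signals as deposited. As means, the GTP branch had 4.76 and the pyrimidine genes 0.65. After quantile normalization or removal of the trend, 0 genes of one-carbon supply were past 2-fold on the AL-labelled array and 1 nucleotide kinase on the DR-labelled array. Past 1.5-fold, 5 histidine genes and 1 regulator were higher on the DR-labelled array, and 1 regulator, 1 salvage gene, 1 nucleotide kinase and 3 pyrimidine genes on the AL-labelled array. Past 3-fold, 3 pyrimidine genes and 0 nucleotide kinases were higher on the DR-labelled array and 0 genes of one-carbon supply on the AL-labelled array. The shares of all genes toward the DR- and AL-labelled arrays were 29.3% and 35.7% past 1.5-fold. They were 11.5% and 12.7% past 3-fold. The cause was not tested. No paired analysis was possible because each condition had 1 array. Ratios with a signal under background are uncertain in size, and no ratio has a replicate check.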

Other observations

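Genes next to the measured ADE genes were taken from the RefSeq gene order (assembly R64). Of 17 measured neighbours, 3 were more than 2-fold higher on the DR-labelled array, 2 on the AL-labelled array and 12 lay within 2-fold, with a median log2 ratio of 0.31. Of all genes, 20.5% and 24.3% passed 2-fold in these directions. Next to ADE6, the sterol gene ERG25 had signals of 5249 on the DR-labelled array and 798.5 on the AL-labelled array.

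ADE16 and ADE17 each lie beside a member of another paralogous pair, the ribosomal protein genes RPL15A and RPL15B, and the pairs split in different ways. RPL15A, beside ADE16, had 7059 on the DR-labelled array and 2356 on the AL-labelled array. RPL15B, beside ADE17, had 923.1 and 1723 on these arrays. Thus the ADE gene with a ratio near 1 lies next to the RPL15 gene that was higher on the DR-labelled array, and the ADE gene with a ratio of 16.0 lies next to the RPL15 gene with a log2 ratio of −0.90. The RPL15 genes are close copies, and whether the probe set of each also reads the other was not tested. This pattern was noticed after the values were seen.

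The array also carries 7 probe sets annotated to lower-case ade symbols of genes outside the S. cerevisiae table. Their signals reached at most 15.1 on the DR-labelled array and 15.6 on the AL-labelled array.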
